A study of Homo sapiens with 27 samples.

Results

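Vimentin and 9 genes of the contractile actin cytoskeleton (ACTA2, TAGLN, TPM1, TPM2, MYL9, CNN1, CNN2, CALD1 and ACTN1) were followed after repression of ZEB1 in mesenchymal breast cancer cells. They are 10 of the 57165 genes in the count data and were picked by name, as genes of 1 cellular structure. Vimentin is the intermediate filament protein of mesenchymal cells and takes the place that keratins hold in epithelial cells. The other 9 encode parts of actin bundles and of the machinery that contracts them: an actin of smooth muscle (ACTA2), the actin-binding proteins transgelin (TAGLN) and calponin (CNN1, CNN2), the tropomyosins that lie along the filament (TPM1, TPM2), the regulatory light chain of myosin (MYL9), caldesmon (CALD1) and the cross-linker alpha-actinin (ACTN1). Many of them are known targets of serum response factor (SRF) and its myocardin-related cofactors, which are themselves controlled by the pool of free actin. ZEB1 is a zinc finger repressor of epithelial genes, and the comparisons asked whether cells with little ZEB1 mRNA still hold the mRNA of a mesenchymal cytoskeleton.

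SUM159 and MDA-MB-231 are human triple negative breast cancer (TNBC) lines of mesenchymal appearance. Each was measured as untransduced wild type cells, as cells carrying dCas9-KRAB without a targeting gRNA (No gRNA), and as cells carrying dCas9-KRAB with gRNA 4 alone or with all 4 gRNAs (All gRNA) against the ZEB1 promoter. dCas9-KRAB is a Cas9 that cannot cut, fused to a repressor domain. It was delivered by a lentiviral vector, in which the ubiquitin C promoter drives dCas9-KRAB and a U6 promoter drives the gRNA, and transduced cells were selected with puromycin from day 4 at 1.25 µg/mL for SUM159 and 0.75 µg/mL for MDA-MB-231. All transduced groups, No gRNA included, therefore carried dCas9-KRAB and had been selected, and wild type cells had not. The SUM159 cells were grown with insulin and hydrocortisone, and the MDA-MB-231 cells in DMEM. There were 27 libraries in 9 groups of 3, labelled as biological replicates and described in the study's methods as individual clones, with 15461200 to 21473757 estimated counts per library. By column prefixes and titles, all SUM159 groups were in run 1 and all MDA-MB-231 groups in run 2, with 3 more SUM159 wild type libraries in run 2. In the transduced groups cell line and run therefore cannot be told apart. The labels do not say whether a run is a sequencing run or another kind of batch.

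For the targeted MDA-MB-231 cells, title and data column disagree in 6 libraries. The 3 libraries called set 1 here are gRNA 4 by title but All gRNA by column, and the 3 of set 2 are the reverse. Either label makes them ZEB1-targeted, but a difference between the sets cannot be assigned to a gRNA condition. ZEB1 was far lower in every targeted library than in every control library of its line. In the No gRNA group of SUM159 its levels were 70.8, 77.3 and 73.3 CPM (counts scaled to library size, with TMM factors), against 0.812, 0.376 and 1.03 CPM with All gRNA and 4.56, 3.25 and 2.57 CPM with gRNA 4. In MDA-MB-231, ZEB1 stood at 105, 122 and 104 CPM in No gRNA, 4.75, 5.51 and 5.74 CPM in set 1 and 4.94, 3.71 and 5.43 CPM in set 2.

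On GRCh38, VIM (ENSG00000026025) lies at chr10:17228241-17237593 on the plus strand and ACTA2 (ENSG00000107796) on the same chromosome at chr10:88935074-88991339 on the minus strand. TAGLN is at chr11:117199370-117207464, TPM1 at chr15:63042620-63071915, MYL9 at chr20:36541497-36551447, CNN1 at chr19:11538767-11550323, CNN2 at chr19:1026586-1039068 and CALD1 at chr7:134744252-134970729, all on the plus strand. TPM2 at chr9:35681992-35690056 and ACTN1 at chr14:68874128-68979440 are on the minus strand. Because strandedness was not stated, ACTA2 (which overlaps FAS and STAMBPL1 on the opposite strand) and TAGLN (which overlaps PCSK7) could hold reads of those neighbours. MYL9 overlaps DLGAP4-AS1 on the opposite strand, which had up to 25.66 counts in a library, while MYL9 itself had 4.94 to 24.57 counts in run 1 SUM159. Reads of actins, of the regulatory light chains and of CNN2 can also be split with near-identical genes or pseudogenes, so the values of ACTA2, MYL9 and CNN2 are uncertain in that respect. The counts are per gene, so the splice forms of TPM1 and CALD1, which differ between smooth muscle and other cells, could not be told apart.

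RefSeq promoter sequence (GRCh38.p14, 250 bases before to 50 after each start site) was matched for 8 of the 10 genes with 16 promoters, and not for TAGLN and MYL9. The CArG box, the sequence that SRF binds, was searched on both strands and found in 454 of 35116 promoters (1.29%). Among the 16 promoters it was found in 2, at base -89 of CNN2 and at base -171 of an alternative start site of ACTN1. They are shown because SRF is the best known regulator of these genes, with the box in capitals, on the strand of the gene. The CNN2 window is at chr19:1026509-1026538 (plus strand) and the ACTN1 window at chr14:68977718-68977747 (minus strand).
CNN2: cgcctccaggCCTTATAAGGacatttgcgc
ACTN1: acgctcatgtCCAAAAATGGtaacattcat
The E-box to which ZEB1 binds, searched as CACCTG and its complement CAGGTG, was found in 7231 of the 35116 promoters (20.6%) and in 0 of the 16. A match describes these letters only, and the lack of one concerns only these windows.

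The 10 genes together took between 0.233% and 0.516% of all counts in a library, and most of that was VIM. Genes of differentiated smooth muscle were near the floor of detection in both lines. Summed levels of 5 smooth muscle markers (MYH11, DES, LMOD1, ACTG2 and SYNPO2) lay between 0.642 and 2.86 CPM in any library, MYOCD, the muscle cofactor of SRF, had mean counts of at most 0.385 in any group, and CNN1, the calponin of smooth muscle, was at 0 to 6.32 counts. CNN1 passed 3 counts in 5 of 27 libraries and was not tested. The leukocyte gene PTPRC had mean counts of at most 3.20, ESR1 of at most 2.09 and PGR of at most 5.77, and PECAM1 of endothelium was at 0.382 to 7.93 CPM. The 3 receptor genes together, with ERBB2, summed to 38.2 to 72.3 CPM. Myoepithelial markers (KRT5, KRT14, TP63, OXTR and MYLK) summed to 132 to 289 CPM in run 1 SUM159, 37.5 to 57.9 CPM in run 2 SUM159 and 7.88 to 69.0 CPM in MDA-MB-231. Fibroblast markers (6 genes) summed to 142 to 399 CPM in SUM159 and 6.58 to 19.4 CPM in MDA-MB-231. In SUM159 they were led by PDGFRA, DCN and COL1A1, while COL1A2 and LUM stayed at mean counts of at most 0.693 and 1.59. In bulk RNA, fewer cells that express a gene and less of its RNA per cell cannot be told apart.

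VIM was highest in transduced SUM159 cells and lowest in MDA-MB-231 set 1. Group means in SUM159 were 4079 ± 249 CPM (SD, n = 3) in All gRNA, 3832 ± 125 in No gRNA, 3799 ± 265 in gRNA 4 and 3237 ± 81.2 in run 1 wild type, and the first 3 of these overlapped. In MDA-MB-231 they were 2510 ± 39.1 CPM in set 2, 2493 ± 30.4 in wild type and 2387 ± 61.8 in No gRNA, of which set 2 and wild type overlapped, and 1321 ± 3.72 in set 1. The coefficient of variation within a group had a median over the 9 groups of 2.51% for VIM, 3.09% for ACTN1, 5.44% for TPM2, 7.24% for ACTA2, 10.4% to 10.9% for CALD1, CNN2 and TPM1, 12.3% for MYL9 and 22.6% for TAGLN.

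**Figure D1:**
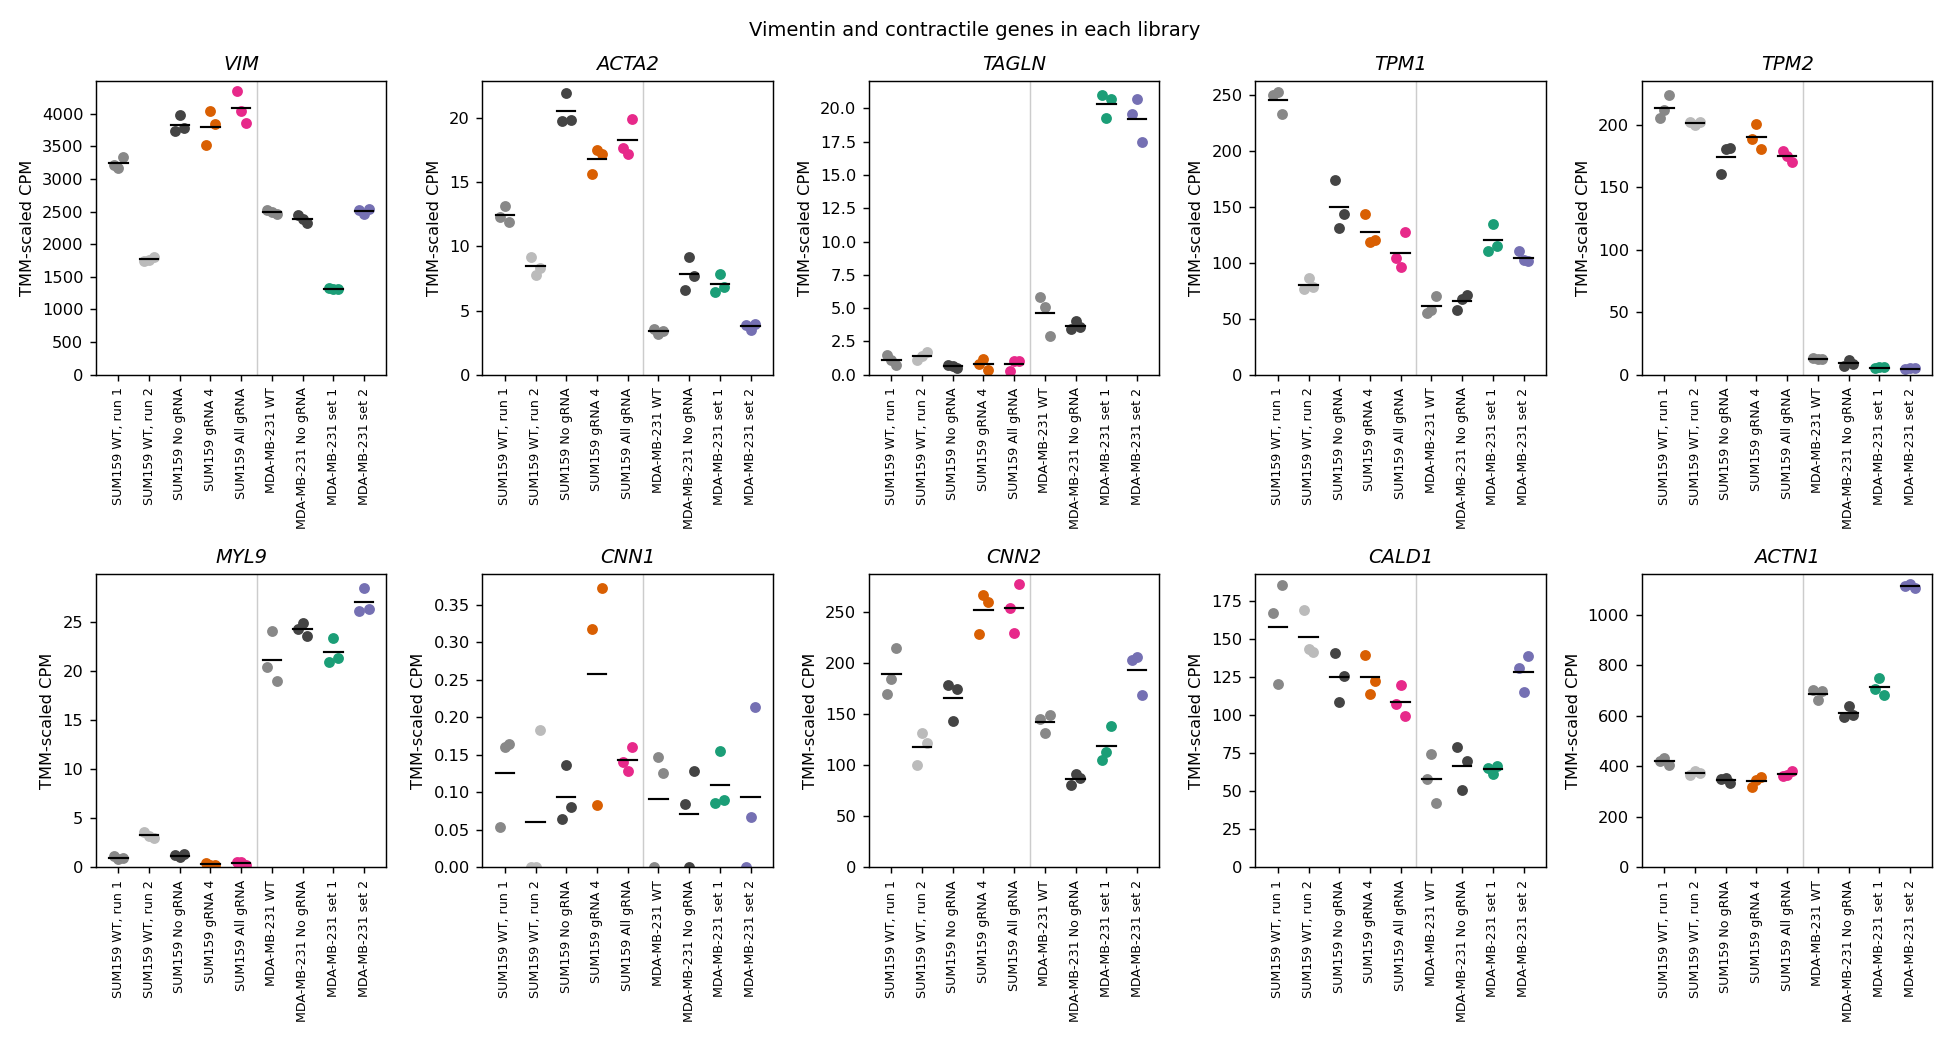
TMM-scaled CPM (linear vertical axes from 0, a different range in each panel) of the 10 genes in each of the 27 libraries; points are libraries, horizontal bars are group means, n = 3, and the grey line separates the cell lines. TAGLN is at 17.4 to 21.0 CPM in the targeted MDA-MB-231 libraries and under 6 CPM in all others, VIM is lowest in MDA-MB-231 set 1, and CNN1 is near 0 throughout.

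The first question was whether ZEB1-targeted SUM159 cells lost these mRNAs relative to No gRNA cells. VIM did not differ detectably. Its levels were 3737, 3974 and 3784 CPM in No gRNA, 4347, 4034 and 3856 CPM in All gRNA and 3515, 4039 and 3843 CPM in gRNA 4, and the groups overlapped. The fitted log2 fold changes were 0.09 (95% interval -0.03 to 0.20, voom-limma adjusted p = 0.330) for All gRNA and -0.02 (-0.14 to 0.09, adjusted p = 0.838) for gRNA 4. Of the 9 genes tested, TREAT, which asks for more than a 2-fold change at an adjusted p under 0.05, called 0 in either targeted group (0.396% of all genes tested with All gRNA and 0.39% with gRNA 4), and edgeR and DESeq2 with the same threshold also called 0; at an unadjusted TREAT p under 0.05 there were 0 and 1. The moderated test against a change of 0, from the same fit, called 3 of 9 with All gRNA (1 higher and 2 lower, against 10.8% of all genes, 5.93% higher and 4.89% lower) and 2 of 9 with gRNA 4 (1 higher and 1 lower, against 11.0%, 6.11% and 4.91%). The median log2 fold change of the 9 was 0.01 and -0.02, and of all genes 0.00 in both.

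CNN2, the calponin of non-muscle cells, was the gene that rose in SUM159. It measured 179, 143 and 175 CPM in No gRNA, 254, 229.7 and 278 CPM in All gRNA and 229, 267 and 259.7 CPM in gRNA 4, so every targeted library was above every No gRNA library. The rise was 0.62 (SE 0.11, adjusted p = 0.0035) and 0.60 (SE 0.11, adjusted p = 0.00419) on the log2 scale, or 53.6% and 51.4%. MYL9 was at the other end. This light chain was barely expressed in run 1 SUM159 cells, at 4.94 to 24.6 counts per library, and fell from 1.27, 1.03 and 1.32 CPM in No gRNA to 0.560, 0.556 and 0.267 CPM in All gRNA and 0.422, 0.292 and 0.292 CPM in gRNA 4. All 6 targeted libraries were below all 3 No gRNA libraries, with log2 fold changes of -1.41 (adjusted p = 0.015) and -1.78 (adjusted p = 0.00555). The call for All gRNA was lost when only the groups compared were fitted (adjusted p = 0.0518) and without No gRNA replicate 3 (0.0522) or All gRNA replicate 3 (0.0729). TPM1 fell by 0.46 with All gRNA (SE 0.12, adjusted p = 0.0358), from 174, 131 and 144 CPM to 104, 95.9 and 127 CPM, and was at 143, 118 and 121 CPM with gRNA 4 (log2 fold change -0.23, adjusted p = 0.262). The values of TPM1 did not overlap between All gRNA and No gRNA, but the call was lost when only these groups were fitted (adjusted p = 0.0858) and without All gRNA replicate 1 (0.103) or 2 (0.129) or No gRNA replicate 1 (0.121) or 3 (0.0692).

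For the other genes in SUM159 no change passed the test. The intervals were narrow for TPM2 (-0.13 to 0.14 with All gRNA and -0.02 to 0.25 with gRNA 4) and ACTN1 (-0.01 to 0.20 and -0.14 to 0.08), and wider for CALD1 (-0.55 to 0.16 and -0.35 to 0.34). ACTA2 was at 19.8, 21.9 and 19.9 CPM in No gRNA, 17.6, 17.2 and 19.9 CPM in All gRNA and 15.7, 17.5 and 17.2 CPM in gRNA 4. All gRNA 4 libraries were below all No gRNA libraries for ACTA2, with a log2 fold change of -0.30 and an adjusted p of 0.0615 (0.0369 when libraries were scaled by their totals), but all were above wild type (0.41, adjusted p = 0.00444). TAGLN, at 4.64 to 31.5 counts per library, had intervals of -1.14 to 1.36 and -1.06 to 1.44, and a change of less than 2-fold was not detectable at this depth. Between All gRNA and gRNA 4, where ZEB1 itself differed by -2.25 (adjusted p = 0.0165; 0.115 with only these groups, and 0.0656 and 0.0637 without All gRNA replicate 1 or 2), 0 of 9 genes were called by voom-limma's moderated test, edgeR or DESeq2 (against 0.944% of all genes), 1 had an unadjusted p under 0.05, and TREAT called 0 genes of any kind (0.0%).

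In MDA-MB-231, the same question was asked of set 1 and set 2. TAGLN rose in both. Wild type cells had 5.83, 5.11 and 2.92 CPM and No gRNA cells 3.43, 4.02 and 3.60 CPM, against 21.0, 19.3 and 20.7 CPM in set 1 and 19.6, 20.7 and 17.4 CPM in set 2. No targeted library overlapped a control library. The rise over No gRNA was 5.50-fold in set 1 (log2 2.46, SE 0.20, TREAT adjusted p = 0.000928) and 5.28-fold in set 2 (log2 2.40, SE 0.20, TREAT adjusted p = 0.000698), and with each library left out in turn the log2 change ranged from 2.41 to 2.52 and from 2.35 to 2.48. TAGLN was the only one of the 9 genes called by TREAT in either set, where 1.47% and 4.14% of all genes were called.

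VIM fell in set 1 and not in set 2. It was at 2451, 2382 and 2327 CPM in No gRNA, 1324, 1317 and 1321 CPM in set 1 and 2520, 2467 and 2543 CPM in set 2. The fall in set 1 was 0.85 on the log2 scale (95% interval -0.90 to -0.80, moderated adjusted p = 3.84e-10), that is 44.5%, with every library below every control, and did not pass TREAT. In set 2 VIM was higher by 0.10 (0.05 to 0.14, adjusted p = 0.00118), and this rise was not called with upper quartile scaling (0.0024, adjusted p = 0.918) or library totals (0.034, adjusted p = 0.10). Set 2 exceeded set 1 by 0.94 (0.89 to 0.99, adjusted p = 5.14e-11). ZEB1 did not differ detectably between the sets (-0.18, interval -0.68 to 0.32, adjusted p = 0.528).

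By the moderated test, 6 of the 9 genes differed from No gRNA in set 1 (4 higher and 2 lower, against 37.8% of all genes, 20.4% higher and 17.3% lower) and 8 of 9 in set 2 (6 higher and 2 lower, against 52.4%, 27.3% and 25.1%). The median log2 fold change of the 9 was -0.02 in set 1 and 0.70 in set 2, beside -0.01 for all genes in each. TPM1 and TPM2, both tropomyosins, went opposite ways in both sets. TPM1 was at 57.4, 67.6 and 71.5 CPM in No gRNA, 110.5, 135 and 114 CPM in set 1 and 110.4, 102 and 101 CPM in set 2, a rise of 0.88 (SE 0.11) and 0.70 (SE 0.11) on the log2 scale. TPM2, scarce in this line, was at 6.99, 11.6 and 8.47 CPM in No gRNA, 5.07, 5.88 and 6.10 CPM in set 1 and 4.27, 5.09 and 5.13 CPM in set 2. Its log2 fold changes were -0.63 (adjusted p = 0.0191) and -0.85 (adjusted p = 0.00294), and the call in set 1 was lost when only these groups were fitted (adjusted p = 0.0588) and without set 1 replicate 1 (0.0687).

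CNN2 rose in both sets as it did in SUM159, from 81.0, 91.3 and 87.8 CPM in No gRNA to 105, 113 and 138 CPM in set 1 (log2 0.45, adjusted p = 0.011) and 203, 206 and 169 CPM in set 2 (log2 1.18, adjusted p = 3.6e-06). ACTN1 rose by 0.23 in set 1 (adjusted p = 0.000765) and by 0.89 in set 2 (adjusted p = 3.79e-09), where it reached 1113, 1123 and 1106 CPM against 595, 639 and 602 CPM in No gRNA. CALD1 rose in set 2, from 79.2, 50.7 and 70.3 CPM to 131, 116 and 139 CPM (log2 0.99, adjusted p = 0.000555), and had a log2 fold change of -0.02 (-0.45 to 0.41) in set 1. ACTA2, the actin most often used as a marker of contractile cells, fell in set 2, from 6.61, 9.17 and 7.71 CPM to 3.86, 3.47 and 3.99 CPM (log2 -1.02, adjusted p = 0.000212), and had a log2 fold change of -0.14 (-0.44 to 0.16) in set 1. MYL9 was at 23.6 to 24.9 CPM in No gRNA, 20.9 to 23.4 CPM in set 1 and 26.1 to 28.5 CPM in set 2, and passed no test against No gRNA. Between the sets, 6 of 9 genes differed by the moderated test (against 51.5% of all genes): VIM, MYL9, CNN2, CALD1 and ACTN1 were higher in set 2 and ACTA2 was lower (the MYL9 call was lost without set 2 replicate 2, adjusted p = 0.0517), with 0 called by TREAT, glmTreat or DESeq2 with the same threshold, or at an unadjusted TREAT p under 0.05 (TREAT called 3.07% of all genes).

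**Figure D2:**
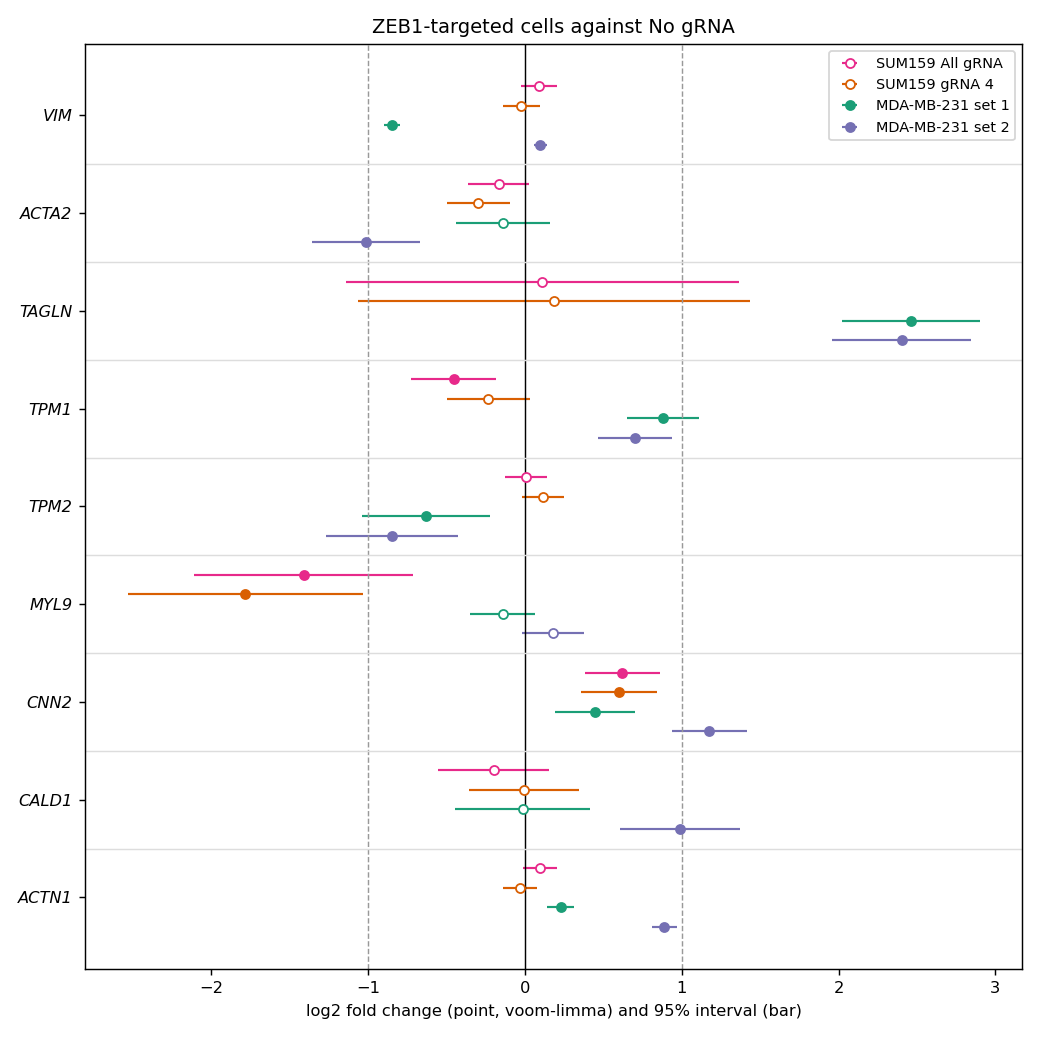
log2 fold change (horizontal axis) of the 9 tested genes in each ZEB1-targeted group against No gRNA of the same line; points are voom-limma estimates, bars 95% intervals, filled points pass the moderated test at an adjusted p under 0.05, and dashed lines mark a 2-fold change. TAGLN in the 2 MDA-MB-231 sets lies between 1.96 and 2.90, VIM is far below 0 only in set 1, and CNN2 is above 0 in all 4 comparisons.

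The difference between the lines was tested directly, as the mean effect of both targeted groups in MDA-MB-231 minus that in SUM159. Of the 9 genes, 6 differed by the moderated test (against 25.4% of all genes) and 0 by TREAT, glmTreat or DESeq2 with the same threshold (TREAT called 0.954% of all genes); 2 had an unadjusted TREAT p under 0.05. The effect on VIM was lower in MDA-MB-231 by 0.43 (SE 0.06, adjusted p = 8.23e-06), with the mean of the 2 sets set against SUM159, although the sets differed. The effects on TAGLN (2.26, adjusted p = 0.00272), TPM1 (1.11, adjusted p = 1.5e-05), MYL9 (1.59, adjusted p = 0.000234) and ACTN1 (0.50, adjusted p = 7.39e-07) were higher in MDA-MB-231, and that on TPM2 was lower (-0.83, adjusted p = 0.000904). CNN2, which rose over No gRNA in all targeted groups, had a difference of 0.18 (-0.13 to 0.49, adjusted p = 0.423). Since MDA-MB-231 was in run 2 and transduced SUM159 in run 1, a difference between lines and one between runs cannot be told apart here.

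Against both control groups at once, a stricter reading, few genes stood clear. In SUM159, CNN2 was higher and MYL9 lower in all 6 targeted libraries than in all 6 run 1 control libraries, and 8 of the 10 genes overlapped (of all genes, 5.33% were higher and 4.20% lower in this way). In MDA-MB-231, TAGLN and TPM1 were higher and TPM2 lower, and 7 overlapped (6.08% and 2.91% of all genes). VIM overlapped in both lines.

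The control groups also differed from each other. No gRNA cells and wild type cells differed in 5 of the 9 genes in each line by the moderated test (against 42.9% of all genes in SUM159 and 53.8% in MDA-MB-231), and in 0 by TREAT, glmTreat or DESeq2 with a 2-fold threshold (TREAT called 1.53% and 3.60% of all genes), also at an unadjusted TREAT p under 0.05. ACTA2 was higher in No gRNA cells of both lines, by 0.71 in SUM159 (adjusted p = 9.95e-05), where wild type libraries had 12.3, 13.1 and 11.9 CPM, and by 1.14 in MDA-MB-231 (adjusted p = 9.57e-05), where they had 3.55, 3.19 and 3.40 CPM. TPM2 was lower in both, by -0.30 and -0.60 on the log2 scale, and so was ACTN1, by -0.29 and -0.22. VIM was higher in SUM159 No gRNA cells (0.24, adjusted p = 0.00378) and lower in MDA-MB-231 No gRNA cells (-0.12, adjusted p = 0.000272). TPM1 was lower in SUM159 No gRNA cells by -0.73 (wild type 249.6, 252 and 233 CPM), and CNN2 was lower in MDA-MB-231 No gRNA cells by -0.76 (wild type 145, 131 and 149 CPM). ZEB1 itself had mean counts, not scaled for depth, of 1980 in MDA-MB-231 No gRNA cells and 1212 in wild type. In SUM159 it differed by -0.12 (adjusted p = 0.313).

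With wild type as the control, TAGLN in MDA-MB-231 again passed TREAT, at log2 fold changes of 2.15 (TREAT adjusted p = 0.00103) in set 1 and 2.09 (0.00629) in set 2, where TREAT called 8.42% and 1.44% of all genes. The TREAT call in set 2 was lost with only the groups compared. VIM was at -0.97 (adjusted p = 2.66e-11) in set 1 and -0.02 (-0.06 to 0.02, adjusted p = 0.430) in set 2, where it was called lower with upper quartile scaling (-0.06, adjusted p = 0.0174) and library totals (-0.05, adjusted p = 0.0247). The ACTA2 result depended on the control: set 1 was above wild type by 1.00 (adjusted p = 0.000258) and set 2 by 0.12 (adjusted p = 0.632). So did the ACTN1 result in set 1, which differed from wild type by 0.0033 with overlapping values, while every set 2 library was above every wild type library for ACTN1. CNN2 was below wild type in set 1 (-0.32, adjusted p = 0.0244, with the call lost without wild type replicate 1 or 3 or set 1 replicate 1 or 2, at adjusted p = 0.0639 to 0.107) and above it in set 2 (0.41, adjusted p = 0.00691). In all, 6 of 9 genes in set 1 and 7 of 9 in set 2 passed the moderated test (against 59.5% and 36.3% of all genes). With a library left out these counts were 5 to 6 and 6 to 7. MYL9 in set 2 (0.33) lost its call in 3 of 6 such fits (adjusted p up to 0.0742). In SUM159, 8 of 9 genes differed from wild type with All gRNA and 7 of 9 with gRNA 4 (against 48.7% and 46.8% of all genes), and TREAT, glmTreat and DESeq2 with a 2-fold threshold called 0 (TREAT called 2.30% and 2.46% of all genes; 0 of the 9 had an unadjusted TREAT p under 0.05). With a library left out these counts were 6 to 8 in each. With All gRNA, CALD1 lost its call without wild type replicate 1 or 3 or All gRNA replicate 3 (adjusted p up to 0.0594), and MYL9 without wild type replicate 1 or All gRNA replicate 3 (up to 0.0752) and with DESeq2 (0.0553). With gRNA 4, TPM2 lost its call without wild type replicate 3 or gRNA 4 replicate 1 or 3 (up to 0.0823) and with upper quartile scaling (0.0771). VIM was higher than in wild type by 0.32 and 0.21, TPM1 lower by -1.18 and -0.96, CNN2 higher by 0.42 and 0.40, and ACTA2 higher by 0.54 (adjusted p = 0.000616) and 0.41 (adjusted p = 0.00444). The other calls were falls. With gRNA 4, ACTN1 (-0.32, adjusted p = 0.00023), TPM2 (-0.19) and MYL9 (-1.49) were lower than in wild type. With All gRNA, MYL9 was at -1.12 and CALD1 at -0.52, and every library was below every wild type library for TPM2, MYL9, CALD1 and ACTN1. The ACTA2 estimates against No gRNA had the other sign (-0.17 and -0.30) but were not called in the fit reported. The comparisons with wild type and with No gRNA share the targeted libraries.

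SUM159 wild type cells were in both runs, and these differed too. VIM was at 3210, 3173 and 3328 CPM in run 1 and 1743, 1764 and 1799 CPM in run 2, a log2 difference of -0.88 (SE 0.06, adjusted p = 1.25e-08), while ZEB1 differed by -0.04 (adjusted p = 0.708). TPM1 was at 76.1, 86.6 and 78.4 CPM in run 2, lower than in run 1 by -1.62 (TREAT adjusted p = 0.00219), and MYL9 was higher by 1.71 (TREAT adjusted p = 0.0453). TREAT called 2 of 9 genes here, and 1 in place of 2 with DESeq2, with no filter on low counts, with only these groups, and without any 1 of the 6 libraries. By the moderated test 6 of 9 genes differed between the runs (against 58.8% of all genes, and 6.47% by TREAT). Marker genes moved in both directions between the runs. Of the fibroblast markers tested, COL1A1 (2.66, adjusted p = 1.49e-11) and PDGFRB (1.86, adjusted p = 3.51e-05) were higher in run 2, PDGFRA was lower (-1.20, adjusted p = 8.95e-08), and DCN had a log2 difference of 0.96 (adjusted p = 0.139). Of the myoepithelial markers, TP63 (-2.89, adjusted p = 6.28e-13) and KRT5 (-4.64, adjusted p = 0.001) were lower, and KRT14, OXTR and MYLK passed no test. Their part in these differences was not tested.

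**Figure D3:**
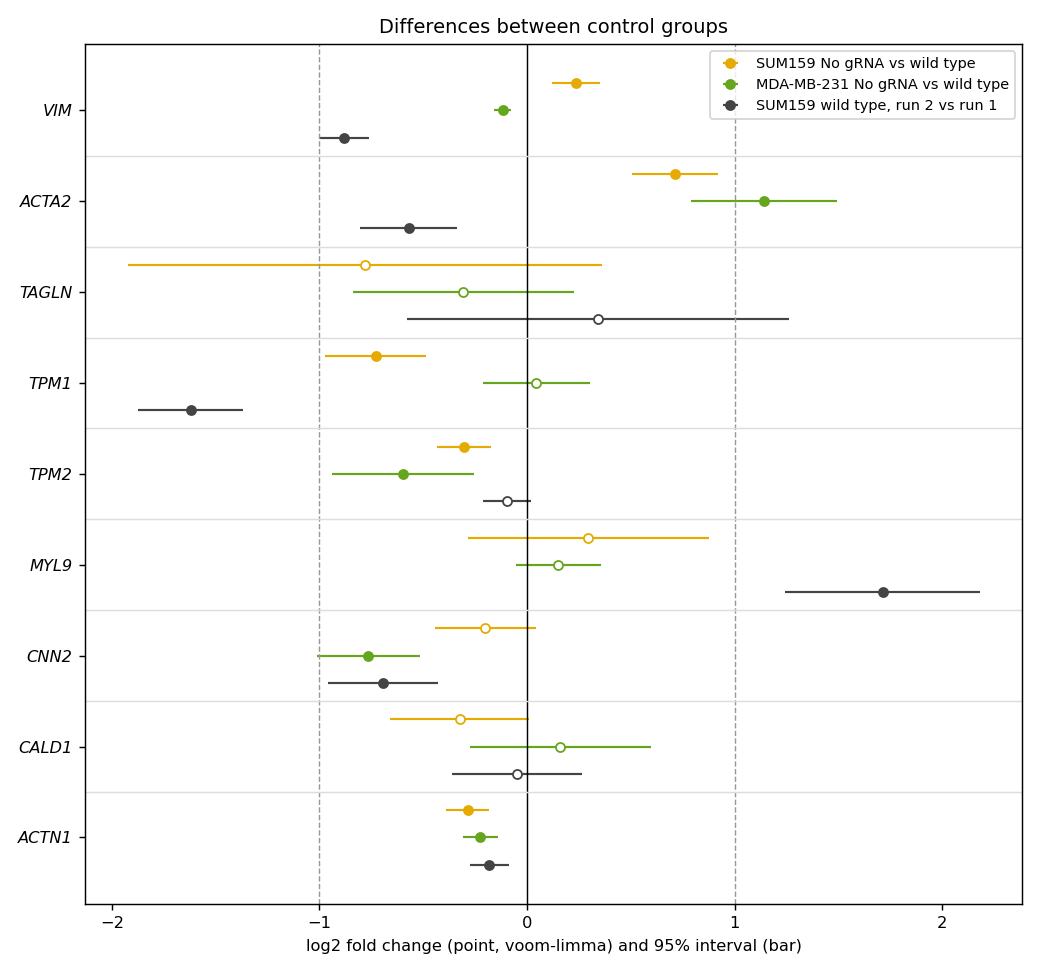
log2 fold change (horizontal axis) of the 9 tested genes between control groups: No gRNA against wild type in each line, and SUM159 wild type of run 2 against run 1; points are voom-limma estimates, bars 95% intervals, filled points pass the moderated test at an adjusted p under 0.05, dashed lines mark a 2-fold change. The run difference is largest, at -1.62 for TPM1 and 1.71 for MYL9, and ACTA2 is above 0 in No gRNA cells of both lines.

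Wild type cells of the lines, compared within run 2, had different contractile profiles. TPM2 was lower in MDA-MB-231 by -3.93 (TREAT adjusted p = 1.89e-11), at 13.6, 12.7 and 12.5 CPM against 202, 199 and 202 CPM in SUM159, and MYL9 was higher by 2.71 (TREAT adjusted p = 3.38e-07). These 2 of 9 passed TREAT (against 28.8% of all genes), 5 passed edgeR's glmTreat, and all 9 passed the moderated test (against 73.0%). With a library left out 7 to 9 passed it. CNN2 lost its call without wild type MDA-MB-231 replicate 1 or 3 or SUM159 replicate 1 (adjusted p up to 0.153), with median-of-ratios scaling (0.0538) and with no filter on low counts (0.0638), and TPM1 without MDA-MB-231 replicate 1 (0.0540). VIM was higher in MDA-MB-231 by 0.53 (adjusted p = 3.64e-11) in this run, whereas the run 1 SUM159 libraries were above all MDA-MB-231 libraries.

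Other genes of the same machinery were taken from 7 lists. The cytoplasmic actins ACTB and ACTG1, the main actins of these cells, rose over No gRNA in all 4 comparisons (2 of 2 tested actins each time). Of all genes, 5.93% rose in SUM159 All gRNA, 6.11% in gRNA 4, 20.4% in set 1 and 27.3% in set 2. ACTB changed by 0.50 in SUM159 All gRNA, 0.52 in gRNA 4, 0.44 in set 1 and 1.41 in set 2 (TREAT adjusted p = 5.19e-07 in set 2), and ACTG1 by 0.37, 0.48, 0.36 and 1.40 (TREAT adjusted p = 1.49e-07). The ACTG1 call in SUM159 All gRNA was lost in 3 of 6 fits with a library left out, at adjusted p up to 0.0804. No gRNA cells, however, lay far below wild type for ACTB. In SUM159 ACTB was at 1402, 1374 and 1419 CPM in No gRNA and 3604, 3880 and 4390 CPM in wild type, with All gRNA at 2078, 1940 and 1923 CPM in between, so that the direction turned with the control: the difference from wild type was -50.1% with All gRNA and -49.3% with gRNA 4 (adjusted p = 2.82e-07 and 3.73e-07). In MDA-MB-231, set 1 was also below wild type (-0.68, adjusted p = 6.74e-10) and set 2 above it (0.29, adjusted p = 5.82e-07). For ACTG1 the direction turned in the same way in set 1 (-0.73 against wild type, adjusted p = 1.18e-10), set 2 was above wild type (0.31, adjusted p = 1.28e-07), and in SUM159 the differences from wild type were 0.08 (adjusted p = 0.441) and 0.20 (adjusted p = 0.0708).

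Among tropomyosin, calponin and transgelin relatives, 6 of 8 were tested in each line. TAGLN3, a neuronal transgelin, was at 0 in all run 1 SUM159 libraries, and in MDA-MB-231 at 11.3, 9.92 and 10.9 CPM in No gRNA, 42.1, 34.7 and 37.4 CPM in set 1 and 8.52, 6.49 and 6.16 CPM in set 2. It rose in set 1 (log2 1.83, TREAT adjusted p = 0.00109) and fell in set 2 (log2 -0.59, moderated adjusted p = 0.00711), but the direction in set 2 turned with the control: wild type cells were at 1.56 to 2.17 CPM, and set 2 stood above them by 1.89 (moderated adjusted p = 7.2e-05) and set 1 by 4.30 (TREAT adjusted p = 3.19e-07). CNN3, the third calponin, was lower in SUM159 with All gRNA (-0.71, adjusted p = 0.0442) and gRNA 4 (-0.85, adjusted p = 0.0211), and higher in set 2 (0.92, adjusted p = 4.25e-08), where it was nevertheless below wild type (-0.15, adjusted p = 0.0185); the All gRNA call was lost in each of the 6 fits with a library left out (adjusted p up to 0.138), and the gRNA 4 call in 3 of 6 (up to 0.0670) and with only these groups (0.0657). TPM3, a tropomyosin of all cells, rose by 0.20 in set 1 (adjusted p = 0.000384) and 0.83 in set 2 (adjusted p = 1.03e-09), but lay below wild type in set 1 (-0.63, adjusted p = 4.58e-09) and differed from it by 0.00 (-0.05 to 0.06) in set 2. In all, 5 of the 6 relatives rose in set 1, where 20.4% of all genes rose, and in set 2 5 rose and 1 fell, where 27.3% rose and 25.1% fell. The rise of TMOD3 in set 2 (0.21, adjusted p = 0.0225) was not called with upper quartile scaling (adjusted p = 0.191), library totals (0.097) or in 3 of 6 fits with a library left out.

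Of the 16 genes of myosin II and its control, 2 rose in SUM159 All gRNA and 0 fell, 2 rose and 1 fell in gRNA 4 (15 tested), 3 rose in set 1, and 6 rose and 3 fell in set 2 (14 tested). The shares of all genes called in these comparisons were 10.8%, 11.0%, 37.8% and 52.4%. Against wild type, gRNA 4 cells had MYH9 (-0.51), MYL6 (-0.59), PPP1R12A, PPP1CB, ROCK1, ROCK2, RHOA and RHOB called lower. Only MYL12A was called higher there (0.32, adjusted p = 0.00301), beside 46.8% of all genes called, so the balance turned with the control. With library totals 5 genes were called in set 1 in place of 3, and the fall of PPP1CB in set 2 (-0.57, adjusted p = 0.0248) was lost in 3 of 6 fits with a library left out (adjusted p up to 0.106). Neither call in All gRNA was stable, and in gRNA 4 the rise of MYH10 (0.39, adjusted p = 0.0368) was lost in 5 of 6 fits with a library left out (adjusted p up to 0.117), with library totals (0.0531) and with no filter on low counts (0.0626). MYL12B (0.18, adjusted p = 0.045) was lost in 5 of 6 fits with a library left out and under 5 other settings (adjusted p up to 0.135). MYH10, a non-muscle myosin heavy chain, rose in set 2 by 1.87 (adjusted p = 6.5e-05), from 23.8, 28.3 and 37.9 CPM to 85.2, 150.2 and 92.6 CPM, where wild type had 78.8, 79.1 and 77.2 CPM. RHOB, a small GTPase, fell in set 2 by 1.22 on the log2 scale (adjusted p = 4.25e-08) and by 0.44 in gRNA 4 (adjusted p = 0.024, lost in 4 of 6 fits with a library left out). MYH11, the heavy chain of smooth muscle, was at mean counts of 6.8 in SUM159 No gRNA, 18 in All gRNA and 18 in run 1 wild type. Its rise over No gRNA with All gRNA was 1.34 on the log2 scale, and its call was lost in each of the 6 such fits (adjusted p up to 0.172). Of 15 cross-linkers and adhesion plaque genes (14 tested in SUM159, where FLNC was not), 5 rose in All gRNA, 2 rose and 1 fell in gRNA 4, 10 rose and 1 fell in set 1 and 8 rose and 3 fell in set 2, beside the same shares of all genes against No gRNA. Against wild type, gRNA 4 cells had ACTN4, FLNA, VCL, ZYX, TLN1, PALLD, LPP and CSRP1 called lower, and SMTN and VASP higher. VCL was at -0.85 (adjusted p = 1.9e-05) and PALLD at -1.01 (adjusted p = 7.89e-05). The balance of calls thus turned with the control, where 46.8% of all genes were called against wild type. Of the falls in set 2, TLN1 (-0.16, adjusted p = 0.0300) was lost in 5 of 6 fits with a library left out (adjusted p up to 0.161), with no filter (0.0923) and with the replicate block (0.0522), and CSRP1 (-0.16, adjusted p = 0.0157) in 2 of 6 (up to 0.0817) and with no filter (0.104). The PDLIM7 call in All gRNA (0.55, adjusted p = 0.039) was lost in each of 6 fits with a library left out (adjusted p up to 0.132), and the fall of LPP in gRNA 4 (-0.51, adjusted p = 0.0147) in 3 of 6 (up to 0.0606). SMTN, which binds actin in contractile cells, rose in both SUM159 groups (1.44, adjusted p = 0.00193, and 1.33, adjusted p = 0.00322), from 14.1, 16.8 and 22.6 CPM in No gRNA to 57.8, 49.3 and 37.9 CPM and 35.5, 52.9 and 46.5 CPM. FLNC, the filamin of muscle, rose in both MDA-MB-231 sets (0.97, adjusted p = 9.6e-07, and 1.06, adjusted p = 1.83e-07) and stood above wild type by 0.09 (adjusted p = 0.243) and 0.18 (adjusted p = 0.0407). PALLD, a scaffold of stress fibres, rose by 0.45 in set 1 (adjusted p = 0.00457) and 0.86 in set 2 (adjusted p = 2.05e-05), with differences from wild type of 0.09 (adjusted p = 0.444) and 0.49 (adjusted p = 0.00175).

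SRF itself rose by 0.68 in set 1 (adjusted p = 2.79e-07) and 0.26 in set 2 (adjusted p = 0.000377) and passed no test in SUM159 (0.04 and 0.07). Its cofactor MRTFB rose in set 2 by 1.53 (adjusted p = 0.000268), with a difference from wild type of 0.36 (-0.10 to 0.81, adjusted p = 0.203), and MRTFA in set 1 by 0.61 (adjusted p = 0.0187; not called without 2 of the 6 libraries, at adjusted p up to 0.0615). Of 3 tested genes in this list, 0 were called in either SUM159 group by the moderated test (against 10.8% and 11.0% of all genes).

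Keratins are the intermediate filaments of epithelial cells. KRT18, a keratin of simple epithelia, rose in all 4 comparisons, by 0.59 (adjusted p = 1.12e-05), 0.56 (adjusted p = 1.84e-05), 0.75 (adjusted p = 8.47e-09) and 1.57 (TREAT adjusted p = 6.86e-08), and was above wild type in 3 of them and at 0.06 (adjusted p = 0.0788) in set 1. Its pairing partner KRT8 was at 262, 259 and 273 CPM in MDA-MB-231 No gRNA, 251, 244 and 233 CPM in set 1 and 1057, 988 and 992 CPM in set 2, a rise of 1.96 in set 2 (TREAT adjusted p = 1.53e-08), where wild type had 623, 602 and 623 CPM. Of the 5 tested keratins in each line, 1 rose and 1 fell in each SUM159 group, 3 rose in set 1 and 4 rose in set 2, while of all genes 5.93% rose and 4.89% fell in All gRNA, 6.11% and 4.91% in gRNA 4, 20.4% rose in set 1 and 27.3% in set 2. KRT5, a basal keratin, fell by 1.00 in SUM159 All gRNA (adjusted p = 0.0439), a call lost with edgeR, DESeq2 and 4 other settings (adjusted p up to 0.124). The call was also lost in 5 of 6 fits with a library left out (adjusted p up to 0.146), where the log2 change ranged from -1.42 to -0.59. All gRNA was above wild type for KRT5 by 1.59 (adjusted p = 0.00601). Among the other filament and lamina genes, NES (nestin) fell in both MDA-MB-231 sets, by 1.11 and 0.42 on the log2 scale (adjusted p = 3.07e-05 and 0.00664), and LMNB1 (lamin B1) fell by 0.44 in set 1 (adjusted p = 0.0235, lost in 4 of 6 fits with a library left out) and rose by 1.76 in set 2 (TREAT adjusted p = 0.000532), where its difference from wild type was -0.04 (-0.22 to 0.14, adjusted p = 0.760). LMNA, the lamin of the nuclear envelope in most differentiated cells, rose by 0.69 in set 2 (adjusted p = 7.67e-08), where its difference from wild type was 0.11 (adjusted p = 0.0460).

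Epithelial markers were measured in the same libraries. Over 7 markers (CDH1, EPCAM, ESRP1, GRHL2, CLDN3, CLDN4 and CLDN7) the summed level was 95.4 to 131 CPM in MDA-MB-231 control libraries and 582 to 621 CPM in targeted ones, led by EPCAM, and GRHL2 had a mean of at most 0.973 counts in any group. Single markers differed between the sets. EPCAM was higher in set 2 than in set 1 (0.41, adjusted p = 4.29e-06), but CDH1 (-2.65, adjusted p = 0.00083), CLDN7 (-1.06, adjusted p = 2.88e-06) and CLDN4 (-0.21, adjusted p = 0.0132) were lower. CLDN7 had mean counts of 1376 in set 1, 675 in set 2, 697 in No gRNA and 303 in wild type. In SUM159 the sum was 0.547 to 2.94 CPM in run 1 controls and 4.50 to 9.54 CPM in targeted libraries, but 3.83 to 5.04 CPM in untargeted wild type cells of run 2, which overlapped the targeted libraries. Whether these levels have a part in the changes of the cytoskeleton genes was not tested.

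**Figure D4:**
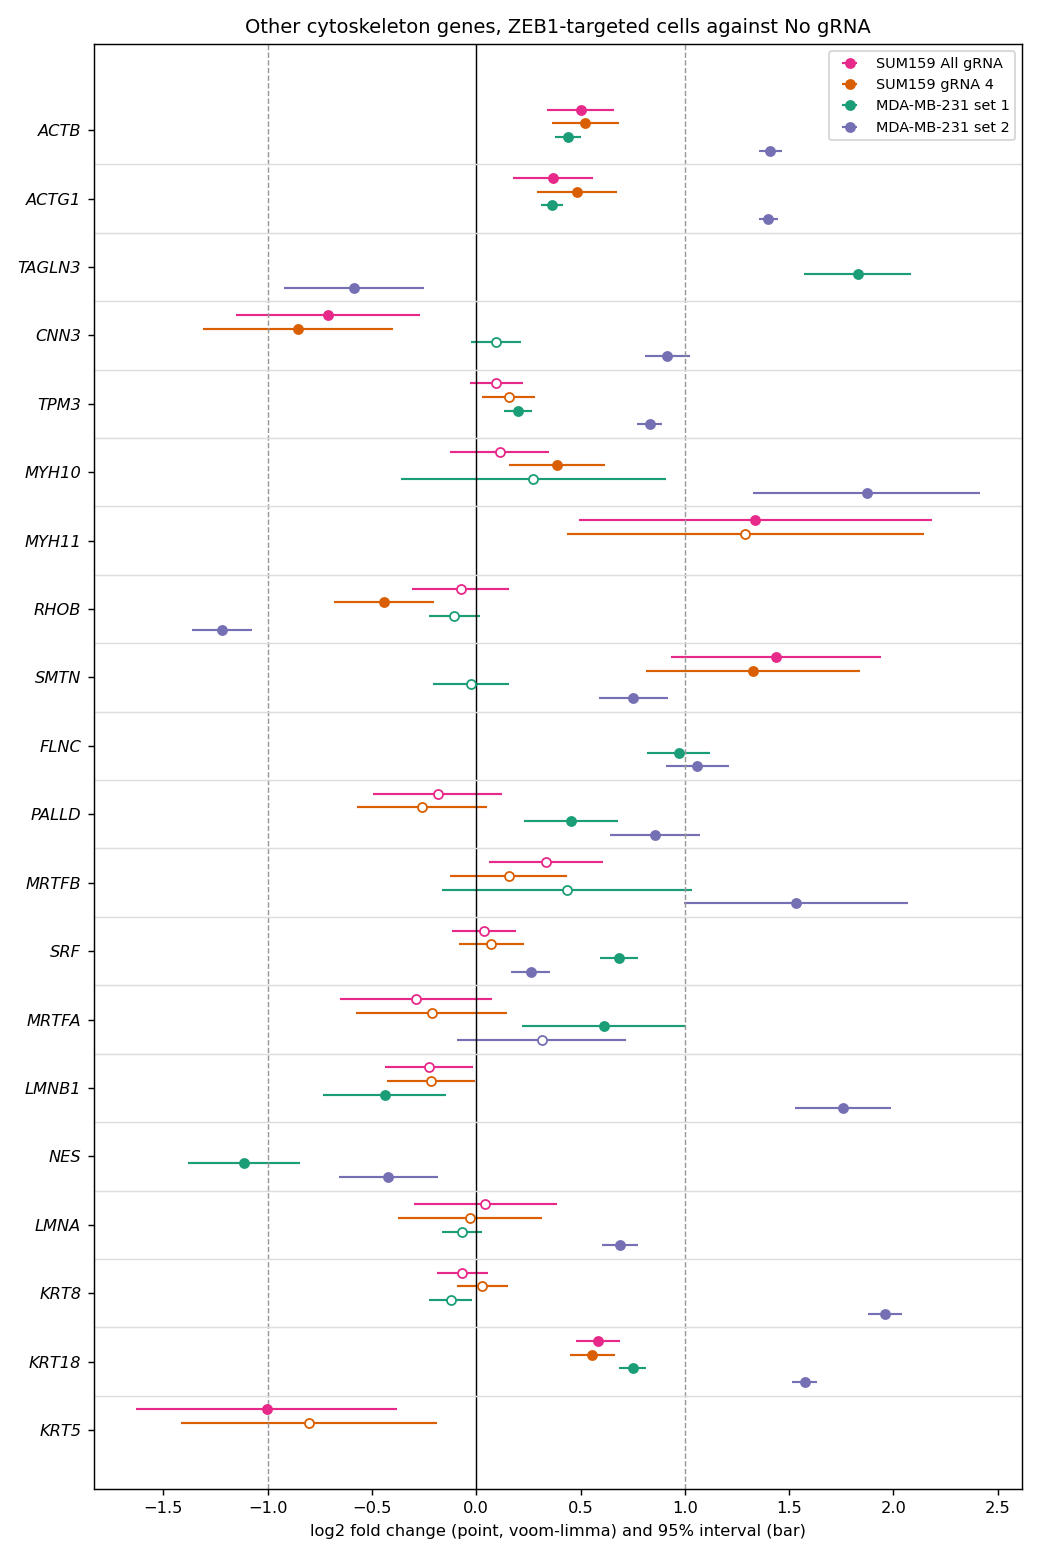
log2 fold change (horizontal axis) of 20 other cytoskeleton genes in each ZEB1-targeted group against No gRNA of the same line; points are voom-limma estimates, bars 95% intervals, filled points pass the moderated test at an adjusted p under 0.05, dashed lines mark a 2-fold change, and genes without a point in a line were not tested there. ACTB, ACTG1 and KRT18 are above 0 in all 4 comparisons, and most points furthest to the right belong to MDA-MB-231 set 2.

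The genes whose levels ran most like VIM across libraries were FGD1 (Pearson's r 0.93 over 12 SUM159 libraries and 0.95 over 12 MDA-MB-231 libraries), NOA1, ENTREP3, MRGBP and EIF3F, chosen from 13774 genes by the lower of the 2 correlations. For TAGLN they were LRRC1 (0.83 and 0.87), UBE2D2, ZNG1A, NDUFAF1 and HOMER1. The points are libraries of 4 groups that share their scaling, and none of the other 9 cytoskeleton genes was among the 5 most like VIM or TAGLN. In SUM159 the TAGLN values rest on 4.64 to 31.5 counts, so its correlations there are imprecise.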

How the data were processed

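Reads were single-end, 50 bp long. From them the authors estimated gene counts with Salmon (GRCh38) and tximport, which corrects for transcript length, and deposited these estimated counts without scaling between libraries; the Salmon version, annotation and strandedness are not given in the sources used here. All 27 libraries were used, grouped by their labels. In R 4.3.3, voom-limma (limma 3.58.1) was fitted to the 12 libraries of a line (for the comparison of SUM159 runs its 15 libraries, for that of wild type lines the 15 of run 2, and for the difference between lines 24 libraries; TMM scaling, filterByExpr with a minimum count of 10) and tested by TREAT (log2 threshold 1) and by the moderated test against 0, two-sided, with Benjamini-Hochberg adjustment over all genes tested and a threshold of 0.05, in 15 comparisons. Adjusted p-values are moderated ones unless TREAT is named. Alternatives used edgeR 4.0.16 and DESeq2 1.42.0 on rounded counts, other scalings and filters, quality weights, fewer groups, a replicate block and each library left out. Gene lists hold the 10 genes, ZEB1, 7 pathway lists and marker lists. Pathway genes were named as the up to 3 largest changes per list among called genes, plus any TREAT call. The genes and lists were chosen with earlier results of these data known. P-values measure the spread between these samples only. The steps were tested on simulated data.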

Additional observations from a re-analysis of the deposited data

Results flagged for a closer look

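The effect of ZEB1 targeting differed between MDA-MB-231 and SUM159, by an interaction test in voom-limma over 24 libraries, for 6 of the 9 tested genes. The difference in log2 fold change (MDA-MB-231 minus SUM159) was -0.43 for VIM, 2.26 for TAGLN, 1.11 for TPM1, -0.83 for TPM2, 1.59 for MYL9 and 0.50 for ACTN1. By the same test 25.4% of all genes differed. The VIM value averages 2 sets that differed, at -0.85 in set 1 and 0.10 in set 2 against No gRNA, beside 0.09 and -0.02 in SUM159. For MYL9 the SUM159 side rests on 4.94 to 24.6 counts per library, and for TAGLN on 4.64 to 31.5. Line and run cannot be told apart in these differences.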

How the results depend on the processing

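Of the log2 fold changes under alternatives that used every library, 2261 were on the same side of the threshold, 41 lost and 7 gained their call and 14 changed sign. With a library left out these numbers were 1384, 99, 8 and 33. The number of members called by the moderated test moved from 3 to 1 in SUM159 All gRNA against No gRNA with only the groups compared, and was 1 to 3 with a library left out (1 without No gRNA replicate 3). In gRNA 4 it moved from 2 to 1 with a minimum count of 30. TREAT calls moved from 1 to 0 in set 2 against wild type with only those groups, from 2 to 1 between the SUM159 runs with DESeq2, no filter or only the groups compared, and was 1 in each of 6 fits with a library left out, and from 2 to 5 between wild type lines with edgeR. The cause was not tested.

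Values that changed sign were not called under the fit reported. For TPM2 in SUM159 All gRNA they were -0.0017 (upper quartile), -0.031 (library totals), -0.0011 (no filter) and -0.0045 (quality weights). Against wild type in set 1, MYL9 was at -0.010 and -0.046 and ACTN1 at -0.015 and -0.051 with upper quartile and library totals, and VIM in set 2 at 0.023 with no filter. Between All gRNA and gRNA 4, TAGLN was at 0.0021 with edgeR and 0.25 with quality weights, and CNN2 at -0.011 with quality weights. CALD1 between runs was at 0.030 and 0.010 with upper quartile and library totals. With a library left out, ranges across 0 were: in SUM159 All gRNA against No gRNA, TAGLN -0.21 to 0.73 and TPM2 -0.048 to 0.035. In gRNA 4 they were VIM -0.067 to 0.030, TAGLN -0.15 to 0.62, CALD1 -0.10 to 0.086 and ACTN1 -0.066 to 0.016. In set 1 CALD1 ranged from -0.21 to 0.12. For MDA-MB-231 No gRNA against wild type, TPM1 ranged from -0.028 to 0.15 and CALD1 from -0.069 to 0.36. For set 1 against wild type, MYL9 ranged from -0.073 to 0.11, CALD1 from -0.082 to 0.35 and ACTN1 from -0.030 to 0.035. Between All gRNA and gRNA 4, TAGLN ranged from -0.51 to 0.54 and CNN2 from -0.044 to 0.093. TAGLN between the sets ranged from -0.11 to 0.0081, and CALD1 between runs from -0.23 to 0.079.

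Counts over all genes moved more. TREAT calls in SUM159 All gRNA fell from 60 to 39 with only the groups compared and to 31 to 43 with a library left out. With edgeR they rose from 231 to 363 (147 to 180 with a library left out) for SUM159 No gRNA and from 349 to 549 for All gRNA against wild type, and from 483 to 738 between the sets. Between All gRNA and gRNA 4, TREAT calls moved from 0 to 1, 2 or 3, and moderated calls from 143 to 357 with DESeq2, 28 with only these groups and 59 to 85 with a library left out (68 with the replicate block). With a library left out, moderated calls over all genes in SUM159 All gRNA were 1048 to 1300 in place of 1639.

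Samples with the same replicate number did not deviate together (correlations of -0.065 to 0.045 in SUM159 and -0.035 to 0.036 in MDA-MB-231). No pairing by number was seen, but this cannot exclude that such libraries were handled together. With the replicate number as a block, the member counts by the moderated test were the same in 14 of the 15 comparisons, including 3 in SUM159 All gRNA and 2 in gRNA 4, and 7 in place of 6 in the interaction.

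Counting depth limits CNN1 everywhere and TAGLN and MYL9 in SUM159. No scaling moved the median of all genes by over 0.1 on the log2 scale.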

Other observations

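Set 1 and set 2 of MDA-MB-231 had different numbers of calls against the 2 control groups. Over all genes, TREAT in voom-limma called 231 genes between set 1 and No gRNA and 1323 between set 1 and wild type, but 651 between set 2 and No gRNA and 227 between set 2 and wild type. Of the cytoskeleton genes, ACTA2 was at 7.04 ± 0.712 CPM (SD, n = 3) in set 1 and 7.83 ± 1.28 in No gRNA, and at 3.77 ± 0.273 in set 2 and 3.38 ± 0.179 in wild type. Some other members went another way. ACTN1 was at 714 CPM in set 1, 689 in wild type, 612 in No gRNA and 1114 in set 2, and MYL9 at 21.9, 21.1, 24.2 and 27.0 CPM, so that for both set 1 lay nearer to wild type. TAGLN in both sets, and VIM in set 1, lay far from both controls. The comparisons share libraries, and no test of nearness was made.

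In SUM159, markers of other cell types went in both directions between No gRNA and targeted cells, by voom-limma's moderated test. Of the fibroblast markers, PDGFRA, a growth factor receptor, rose with All gRNA (log2 fold change 1.02, adjusted p = 1.7e-06) and gRNA 4 (0.90, adjusted p = 5.26e-06), and COL1A1, a chain of collagen I, fell (-0.70, adjusted p = 0.0013, and -0.75, adjusted p = 0.000778). The proteoglycan DCN rose with gRNA 4 (2.84-fold, adjusted p = 0.00994) and was at 0.92 on the log2 scale (adjusted p = 0.104) with All gRNA, and PDGFRB was at -0.88 (adjusted p = 0.109) and -0.77 (adjusted p = 0.158). Of the myoepithelial markers, TP63 rose in both (0.55, adjusted p = 4.44e-05, and 0.75, adjusted p = 2.84e-06), KRT5 fell with All gRNA (a call lost under several settings), and KRT14, OXTR and MYLK passed no test in either group. PECAM1 of endothelium was at 1.18 to 3.75 CPM in No gRNA, 4.96 to 7.93 CPM in All gRNA (log2 fold change 1.42, adjusted p = 0.0393) and 4.33 to 7.48 CPM in gRNA 4 (1.29, adjusted p = 0.0624). Against wild type, TP63 was lower with gRNA 4 (-0.37, adjusted p = 6.28e-05), so that its direction turned with the control. COL1A1 differed from wild type there by -0.07 (adjusted p = 0.629), and PDGFRA, DCN and PECAM1 were called higher. Against No gRNA in MDA-MB-231, PDGFRB fell in set 1 (-2.52, adjusted p = 0.00361) and set 2 (-3.64, adjusted p = 0.00104), COL1A1 rose in both (0.88, adjusted p = 0.00247, and 0.92, adjusted p = 0.00102), PECAM1 fell in set 2 (-1.94, adjusted p = 0.00317) and OXTR in set 1 (-1.56, adjusted p = 0.0127). For PECAM1, set 2 (0.382 to 1.43 CPM) overlapped wild type (0.463 to 1.18 CPM), and No gRNA was at 2.44 to 3.49 CPM. Mean counts of PDGFRB were 154 in No gRNA, 43.2 in wild type, 28.8 in set 1 and 13.7 in set 2. Those of COL1A1 were 122, 92.3, 206 and 213, and of OXTR 25.2, 21.3, 7.52 and 21.3. The part of these markers in the other results was not tested.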
